A study of Mus musculus with 72 samples.

Results

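Fibronectin leucine-rich transmembrane proteins (Flrt1, Flrt2 and Flrt3), latrophilins (Adgrl1, Adgrl2 and Adgrl3) and calsyntenins (Clstn1, Clstn2 and Clstn3) are 3 families of cell-surface adhesion proteins best known from synapses. The 9 genes were taken by symbol out of 56691 gene rows, and all 9 passed the filter on low counts. They were selected on these data: Flrt1 had been among the largest rises with 10 ng/ml of both forms of follicle-stimulating hormone (FSH) and Clstn3 with 10 ng/ml FSH21, and their families were added whole. Values of the 10 ng/ml groups against their controls, and differences that use those groups, are therefore given as a description without p-values. Where calls of members are counted there, nothing is read from them. Tests with a p-value are given for the members at 1 ng/ml and for genes that are not members.

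RNA was measured by sequencing in 18 libraries of mouse early secondary ovarian follicles, which hold a growing oocyte inside layers of granulosa cells, after 24 h in culture. FSH21 is a hypoglycosylated form of FSH and FSH24 the fully glycosylated form, and the study asked how the 2 forms shape the follicle transcriptome. The 6 groups of 3 libraries were 1 ng/ml FSH21, 1 ng/ml FSH24 and untreated follicles carrying library numbers 1, 5 and 6 (here the low-dose controls), and 10 ng/ml FSH21, 10 ng/ml FSH24 and untreated follicles carrying library numbers 2, 3 and 4 (here the high-dose controls). All groups shared the same medium of α-MEM with serum albumin, fetuin and an insulin, transferrin and selenium supplement. The labels give no strain, genotype, age, number of follicles or animal of origin, so the p-values rest on differences among libraries alone, and some of that spread may be technical. Dose and library number changed together, so each dose is set against the controls of its own numbers.

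FLRT proteins span the membrane once and bind latrophilins on the facing cell, and FLRT, latrophilin and teneurin proteins can join in one complex across the contact. FLRT proteins also bind UNC5 receptors and, within the same cell, FGF receptors. Latrophilins are adhesion G-protein-coupled receptors. Calsyntenins are single-pass proteins with cadherin repeats. They bind kinesin light chains as cargo adaptors, are cut by ADAM proteases and gamma-secretase much as amyloid precursor protein is, and in neurons calsyntenin-3 helps presynaptic terminals form.

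Totals ran from 17510000 to 22510000 counts per library, to 4 digits. Levels are CPM, the count of a gene scaled by its TMM-adjusted library total so that libraries of different depth can be compared. Comparisons come from edgeR's quasi-likelihood test with a call at a Benjamini-Hochberg adjusted p under 0.05 over 18727 genes. Markers of both follicle cell types were abundant, with Gdf9, an oocyte growth factor, at 960.5 to 1217 CPM and Inha, the granulosa inhibin subunit, at 2288 to 3730 CPM over all libraries. The 8 immune markers together stayed at or below 5.42 CPM. The transcripts come from whole follicles, in which fewer cells of a type and less RNA per cell cannot be told apart.

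The 9 genes lie on 9 different chromosomes of GRCm38. The 3 Flrt genes are Flrt1 at chromosome 19, 7092001 to 7105729 (minus strand), Flrt2 at chromosome 12, 95692226 to 95785215 (plus strand), and Flrt3 at chromosome 2, 140650914 to 140671469 (minus strand). The 3 latrophilin genes are Adgrl1 at chromosome 8, 83900105 to 83941954 (plus strand), Adgrl2 at chromosome 3, 148815583 to 148990555 (minus strand), and Adgrl3 at chromosome 5, 81020138 to 81825133 (plus strand). The 3 calsyntenin genes are Clstn1 at chromosome 4, 149586468 to 149648899 (plus strand), Clstn2 at chromosome 9, 97444395 to 98033181 (minus strand), and Clstn3 at chromosome 6, 124430759 to 124464794 (minus strand). Flrt1 and Flrt3 shared an arrangement: each lay on the opposite strand inside one intron of a macrodomain gene, Flrt1 inside Macrod1 and Flrt3 inside Macrod2, with no exon of the host gene inside its span.

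RefSeq promoter windows of 300 bases on GRCm38.p6, from 250 bases before to 50 bases after a start site, matched 8 of the 9 genes, all but Flrt1. The windows of the 3 calsyntenins are shown because Clstn3 and Clstn2 were higher with 10 ng/ml of both forms and hold the full cyclic AMP response element, and that of Flrt3 because its level was lower. Capitals mark the element TGACGTCA, a palindrome that contains the shorter element TGACG on both strands.
Clstn3, chr6:124464735-124465034, minus strand: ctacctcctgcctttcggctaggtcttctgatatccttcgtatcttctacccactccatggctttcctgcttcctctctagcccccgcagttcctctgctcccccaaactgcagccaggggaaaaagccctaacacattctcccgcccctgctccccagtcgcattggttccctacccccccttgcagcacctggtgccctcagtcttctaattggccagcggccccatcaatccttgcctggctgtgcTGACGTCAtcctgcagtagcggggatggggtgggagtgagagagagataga
Clstn2, chr9:98033118-98033417, minus strand: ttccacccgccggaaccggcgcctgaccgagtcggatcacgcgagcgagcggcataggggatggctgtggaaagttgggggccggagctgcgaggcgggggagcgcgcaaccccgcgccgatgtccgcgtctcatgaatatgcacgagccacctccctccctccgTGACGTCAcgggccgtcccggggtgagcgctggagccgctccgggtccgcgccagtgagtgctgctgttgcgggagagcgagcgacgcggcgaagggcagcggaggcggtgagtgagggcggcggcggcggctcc
Clstn1, chr4:149586218-149586517, plus strand: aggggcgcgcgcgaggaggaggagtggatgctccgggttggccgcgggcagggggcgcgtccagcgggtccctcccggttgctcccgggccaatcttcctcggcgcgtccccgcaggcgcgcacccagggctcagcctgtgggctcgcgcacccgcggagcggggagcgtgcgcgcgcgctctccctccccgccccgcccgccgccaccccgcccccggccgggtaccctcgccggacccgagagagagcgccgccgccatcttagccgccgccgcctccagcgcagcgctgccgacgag
Flrt3, chr2:140671427-140671726, minus strand: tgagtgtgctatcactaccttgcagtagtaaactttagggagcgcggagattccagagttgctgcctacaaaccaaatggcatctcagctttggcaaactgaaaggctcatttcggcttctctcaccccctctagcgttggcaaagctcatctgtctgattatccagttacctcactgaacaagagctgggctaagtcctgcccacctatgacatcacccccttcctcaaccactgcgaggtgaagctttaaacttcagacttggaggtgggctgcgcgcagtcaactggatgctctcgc

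The element began 1 base before the start site in Clstn3 and 85 bases before it in Clstn2. It occurred in 2 of the 8 matched members, against 2.03% of 27025 genes and 1.79% of all 32851 windows of this length. The second RefSeq window of Clstn3, at chr6:124462695-124462994, did not hold it. The shorter element TGACG, searched on both strands, was present in 4 of the 8 matched members, namely Clstn3, Clstn2, Adgrl2 and Flrt2, and in 23% of the 27025 genes and 20.8% of all windows. Motifs TCAAGGTCA of NR5A receptors, AGATAA of GATA factors and GTAAACA of FOXO factors were not found on either strand in any member's window. They occurred in 0.423%, 11.2% and 3.65% of all windows. Adgrl1 and Clstn1, whose libraries with 10 ng/ml FSH21 also lay above every control, held neither TGACGTCA nor TGACG. A match describes letters in these windows only, and a link to the changes was not tested.

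In untreated follicles the latrophilin Adgrl1 and the calsyntenin Clstn1 led the 9 genes, and Flrt1, Clstn3 and Adgrl3 were the lowest. Per kb of exon, which allows levels to be compared between genes, Adgrl1 was at 39.7 ± 4.32 CPM per kb, Clstn1 at 28.2 ± 2.08, Adgrl2 at 13.6 ± 0.987, Clstn2 at 7.63 ± 1.21 and Flrt2 at 7.37 ± 0.592 CPM per kb (SD, n = 6 untreated libraries). Flrt3 followed at 2.96 ± 0.375, Flrt1 at 0.874 ± 0.192, Clstn3 at 0.527 ± 0.0535 and Adgrl3 at 0.155 ± 0.0501 CPM per kb (SD, n = 6). Only Clstn2 and Flrt2 were neighbours whose ranges overlapped, at 5.54 to 8.70 and 6.85 to 8.33 CPM per kb. The order thus ran across the families: each family had at least 1 gene above 7 CPM per kb and at least 1 gene below 3 CPM per kb. Tenm4, a teneurin and so a ligand of latrophilins, was far above all members in the same scale, at 151 ± 11.4 CPM per kb in low-dose and 134 ± 34.4 CPM per kb in high-dose controls (SD, n = 3 each), while Tenm1 and Tenm2 did not pass the count filter.

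**Figure D1:**
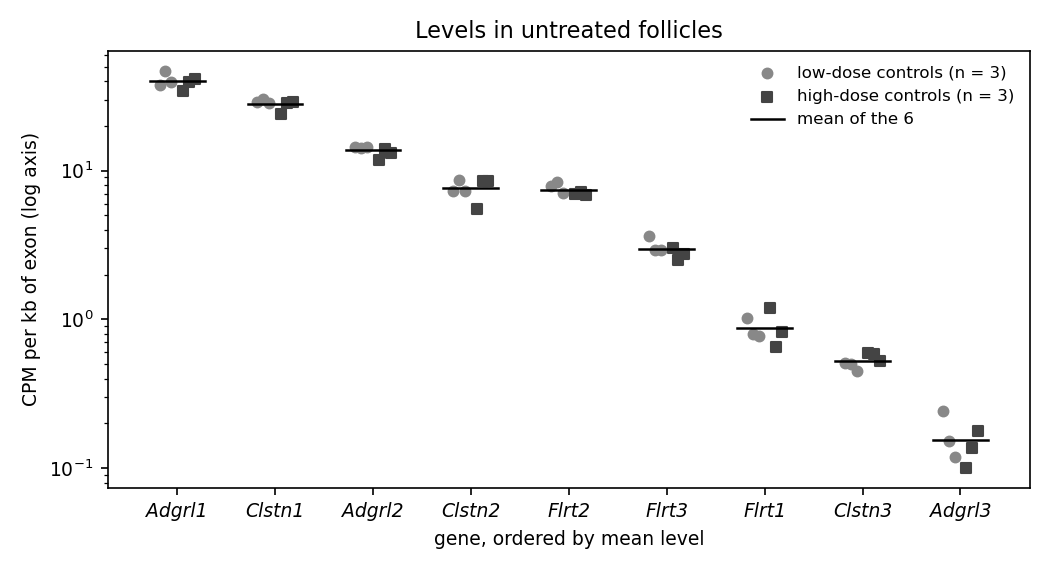
Level of each gene in the 6 untreated libraries, in CPM per kb of merged exon length on a log axis, with circles for the low-dose controls, squares for the high-dose controls and a line at the mean of the 6. Means fall from 39.7 CPM per kb for Adgrl1 to 0.155 CPM per kb for Adgrl3, and only Clstn2 and Flrt2 overlap their neighbour.

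At 1 ng/ml, Clstn3 and Flrt1 had the largest differences among the members with FSH21. Neither was called by the main edgeR fit, which did not use library number as a block. Of the 9 members, edgeR called 0 with 1 ng/ml FSH21, against 0.128% of all genes tested. At an unadjusted p under 0.05 there were 2 members, Clstn3 and Flrt1, against 1370 of 18727 genes. DESeq2 called 1 member, Clstn3, and 111 over all genes. With library number as a block, edgeR called Clstn3 and Flrt1, and 226 over all genes. Numbers were not taken to pair these samples, because not every same-number correlation exceeded 0.1. Those of 1 ng/ml FSH21 and its controls were 0.065 to 0.178, above the -0.173 to 0.049 of pairs of other numbers. The count of 0 members called thus depends on leaving library number out of the fit. With 1 ng/ml FSH24, edgeR and DESeq2 each called 0 members, against 0% of all genes in edgeR and 1 gene in DESeq2. At an unadjusted p under 0.05 there was 1 member, Clstn3, against 1119 of 18727 genes.

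Clstn3 was at 5.13, 4.67 and 4.31 CPM in the 1 ng/ml FSH21 libraries numbered 1, 5 and 6, at 2.54, 4.55 and 3.83 CPM in the 1 ng/ml FSH24 libraries and at 2.54, 2.48 and 2.235 CPM in the low-dose controls. Every FSH21 library lay above every control, whereas FSH24 library 1 was level with its control. The log2 change with 1 ng/ml FSH21 was 0.96 (SE 0.20, adjusted p = 0.0748, edgeR). Adjusted p ranged from 0.00809 with DESeq2 to 0.387 without control number 6 over the alternative settings, and it was 0.0342 with no count filter. With 1 ng/ml FSH24 the log2 change was 0.59 (SE 0.20, adjusted p = 0.815), and it was 0.40 (adjusted p = 0.945) without FSH24 library 5.

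Flrt1 was at 17.1, 9.47 and 5.44 CPM in the 1 ng/ml FSH21 libraries, at 7.71, 5.62 and 6.63 CPM in the 1 ng/ml FSH24 libraries and at 5.95, 4.68 and 4.56 CPM in the low-dose controls. FSH21 library 1 stood highest and library 6 lay within the range of the controls. The log2 change with 1 ng/ml FSH21 was 1.08 (SE 0.35, adjusted p = 0.407, edgeR), and it was 0.56 (adjusted p = 0.874) without FSH21 library 1 and 1.39 (adjusted p = 0.108) without FSH21 library 6. DESeq2 gave an adjusted p of 0.0751. With 1 ng/ml FSH24 it was 0.39 (SE 0.35, adjusted p = 0.900). Within library numbers, Flrt1 was 1.19 to 2.88 times its control with FSH21 and 1.199 to 1.45 times its control with FSH24. Numbers were not taken to pair these samples. Ratios stayed above 1 in every number also for Adgrl1, Adgrl3, Clstn1, Clstn2 and Clstn3 with FSH21 and for Adgrl3 with FSH24.

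Flrt3, the remaining member whose groups did not overlap at 1 ng/ml, was at 13.07, 12.8 and 12.9 CPM with 1 ng/ml FSH21, at 17.96, 17.2 and 10.6 CPM with 1 ng/ml FSH24 and at 17.6, 14.2 and 14.3 CPM in the low-dose controls. Its FSH21 libraries lay below all 3 controls, with a log2 change of -0.25 (SE 0.16, adjusted p = 0.835, edgeR). Clstn3 and Flrt3 made 2 of 9 members with groups apart for 1 ng/ml FSH21, where 13% of all genes tested had groups apart, and 0 of 9 for 1 ng/ml FSH24, where 10.3% had. The other 6 members differed from the low-dose controls by -0.02 to 0.19 on the log2 scale with FSH21 and by -0.09 to 0.54 with FSH24, the last for Adgrl3 at 46 to 127 counts per library in those groups.

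Between the 2 forms at 1 ng/ml, edgeR and DESeq2 each called 0 of 9 members, and 0 had an unadjusted p under 0.05 in edgeR. Over all genes edgeR called 2, or 0.0107%, and DESeq2 called 204. DESeq2 gave Clstn3 no adjusted p there. Clstn3 differed by 0.37 on the log2 scale in FSH21 over FSH24 libraries, with a 95% interval from -0.04 to 0.77, and Flrt1 by 0.69, with an interval from -0.04 to 1.41. Both intervals include 0. Leaving out 1 library moved these differences between 0.17 (without FSH21 library 1) and 0.99 (without FSH21 library 6) for Flrt1 and between 0.17 (without FSH24 library 1) and 0.55 (without FSH24 library 5) for Clstn3.

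**Figure D2:**
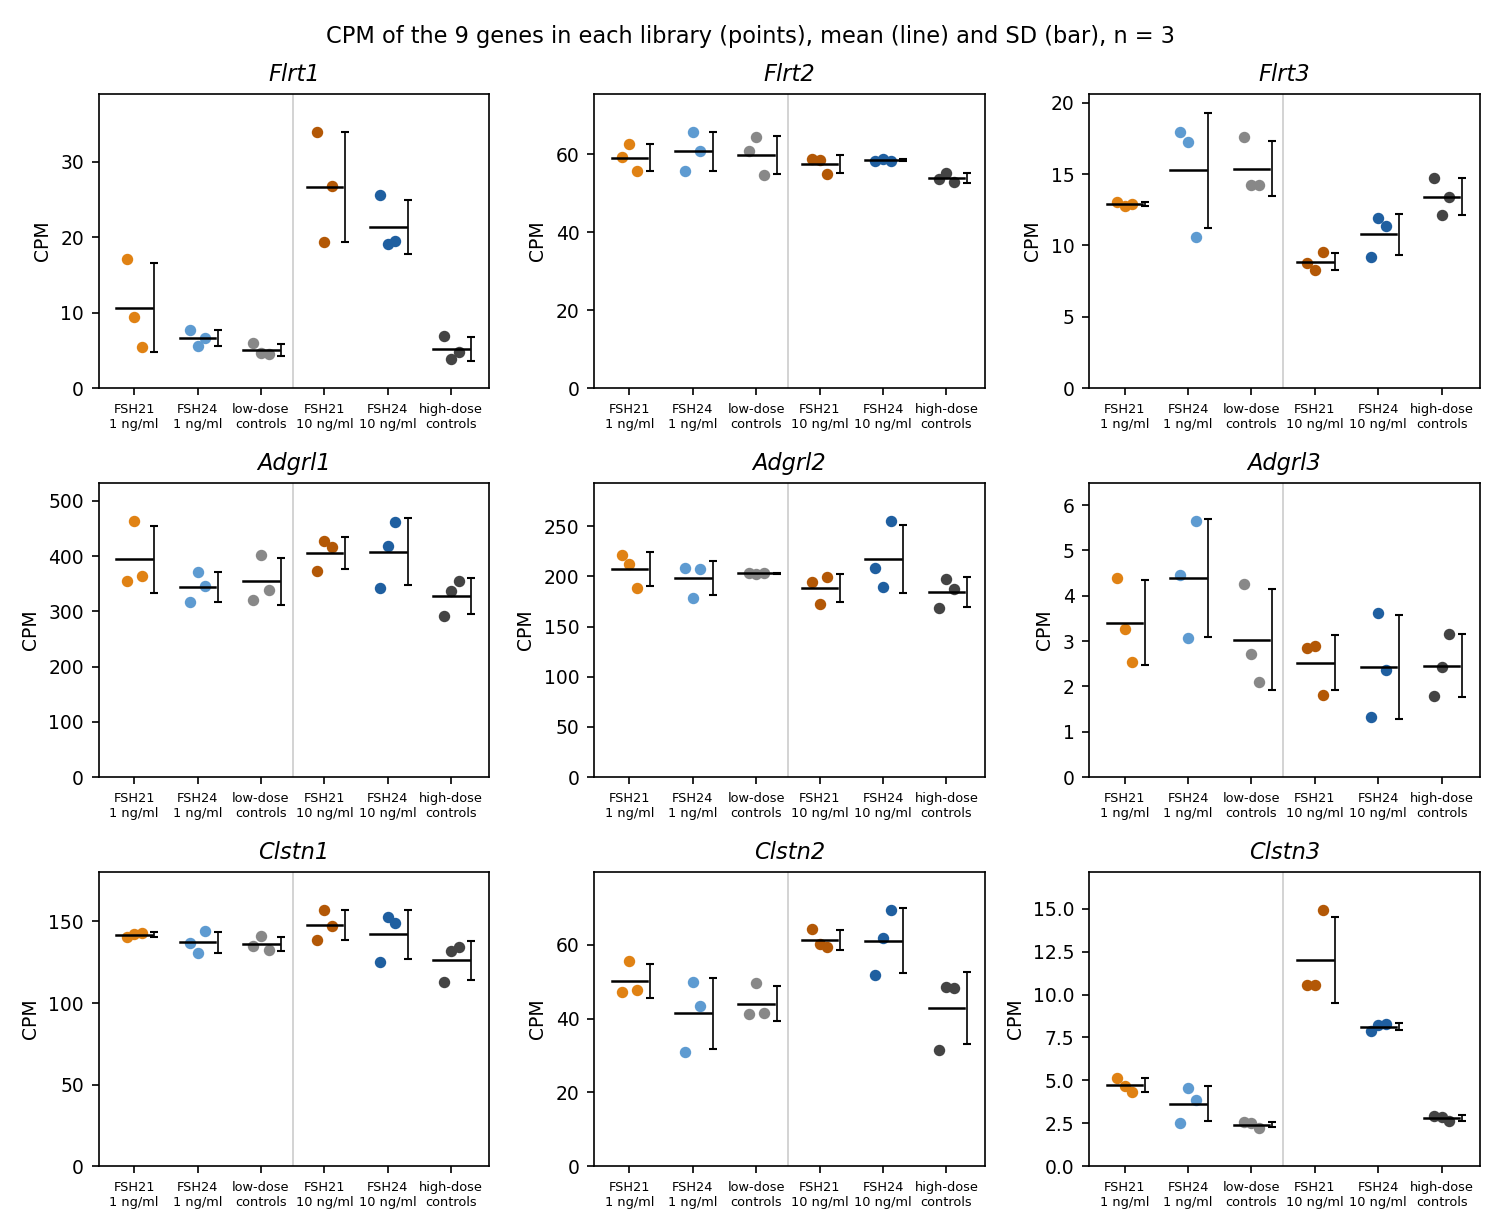
CPM of each of the 9 genes in every library, by group, with points for libraries, a line for the mean and a bar for the SD (n = 3). In the 10 ng/ml groups Flrt1 lies at 19.1 to 34.0 CPM, against 3.85 to 6.97 CPM in the high-dose controls, and Clstn3 at 7.89 to 14.9 CPM, against 2.62 to 2.95 CPM.

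At 10 ng/ml, Flrt1 and Clstn3 were higher with both forms, Flrt3 was lower and Clstn2 was somewhat higher. The call rule picked 3 of 9 members with FSH21 (Flrt1, Clstn3 and Flrt3) and 2 of 9 with FSH24 (Flrt1 and Clstn3), against 10.2% and 8.42% of all genes. DESeq2 picked 4 and 3 members, adding Clstn2 with both forms. Because this contrast chose the members, nothing is read from these counts. Library numbers paired the samples for 10 ng/ml FSH21 and the high-dose controls, and with the number as a block the rule picked 6 of 9 members there, adding Clstn2, Adgrl1 and Clstn1, against 15.1% of all genes.

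Flrt1, the FLRT gene with the lowest transcript level per kb in untreated follicles, was at 34.0, 19.4 and 26.8 CPM with 10 ng/ml FSH21, numbers 2, 3 and 4, and at 25.6, 19.1 and 19.6 CPM with 10 ng/ml FSH24, against 6.97, 3.85 and 4.79 CPM in the high-dose controls. No treated library overlapped the controls. The log2 change was 2.36 (SE 0.34) with FSH21 and 2.04 (SE 0.34) with FSH24. Number 2 was highest in all 3 groups. Within numbers the ratio to the control was 4.88 to 5.59 with FSH21, relatively narrower than the CPM. With FSH24 the ratio was 3.67 to 4.95, not narrower than the CPM. Per kb of exon, Flrt1 stood at 4.55 ± 1.25 with 10 ng/ml FSH21 and 3.64 ± 0.616 CPM per kb with FSH24, above Flrt3 at 1.82 ± 0.127 and 2.22 ± 0.295 CPM per kb, while in the high-dose controls it stood below, at 0.886 ± 0.273 against 2.76 ± 0.271 CPM per kb (SD, n = 3 each).

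Flrt3 was at 8.76, 8.31 and 9.53 CPM with 10 ng/ml FSH21 and at 9.17, 11.9 and 11.3 CPM with 10 ng/ml FSH24, against 14.7, 12.1 and 13.4 CPM in the high-dose controls. Both treated groups lay below all controls. The log2 change was -0.60 (SE 0.17) with FSH21 and -0.31 (SE 0.16) with FSH24. The FSH21 call was lost, leaving 2 members, without FSH21 library 2 or 3 or control number 2 or 4. Flrt2, the most abundant FLRT gene, kept within a factor of 1.24 over all 18 libraries, at 54.8 to 58.9 CPM with 10 ng/ml FSH21 and 58.25 to 58.7 CPM with FSH24, against 52.9 to 55.3 CPM in the high-dose controls.

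Clstn3 was at 10.55, 10.6 and 14.9 CPM with 10 ng/ml FSH21 and at 7.89, 8.22 and 8.27 CPM with 10 ng/ml FSH24, against 2.95, 2.89 and 2.62 CPM in the high-dose controls. Both treated groups lay above every control. The log2 change was 2.09 (SE 0.20) with FSH21 and 1.53 (SE 0.20) with FSH24. Within numbers the ratio to the control was 3.58 to 5.70 with FSH21 and 2.68 to 3.155 with FSH24.

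Clstn2 was at 64.3, 60.3 and 59.3 CPM with 10 ng/ml FSH21 and at 51.8, 61.95 and 69.4 CPM with 10 ng/ml FSH24, against 31.5, 48.6 and 48.4 CPM in the high-dose controls. All 6 treated libraries lay above the 3 controls, of which number 2 was lowest. The log2 change was 0.52 (SE 0.18) with FSH21 and 0.51 (SE 0.18) with FSH24, and without control number 2 it was 0.325 with FSH21 and 0.319 with FSH24. Clstn1, the abundant calsyntenin, was at 139 to 157 CPM with FSH21 and 125 to 153 CPM with FSH24, against 113 to 134 CPM in the high-dose controls, log2 changes of 0.23 (SE 0.08) and 0.17 (SE 0.08).

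Among the latrophilins, the receptors of the set, Adgrl1 was at 373, 427 and 416 CPM with 10 ng/ml FSH21 and at 342.5, 418 and 462 CPM with 10 ng/ml FSH24, against 292, 337.5 and 354.5 CPM in the high-dose controls, with the FSH21 libraries above the controls and the FSH24 libraries overlapping them. Its log2 change was 0.31 (SE 0.12) with each form. Adgrl2 was at 173 to 199 CPM with FSH21 and 189 to 255 CPM with FSH24, against 168 to 197 CPM, so the ranges overlapped. Adgrl3 stayed at 28 to 73 counts per library in these 3 groups, where its log2 change was 0.03 with FSH21 and -0.02 with FSH24, each with an SE of 0.36. In all, groups did not overlap for 6 of 9 members with 10 ng/ml FSH21, where 27.7% of all genes did not. With FSH24 this held for 5 of 9, against 24.5% of all genes. Members were chosen on these contrasts, so nothing is read from these counts.

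**Figure D3:**
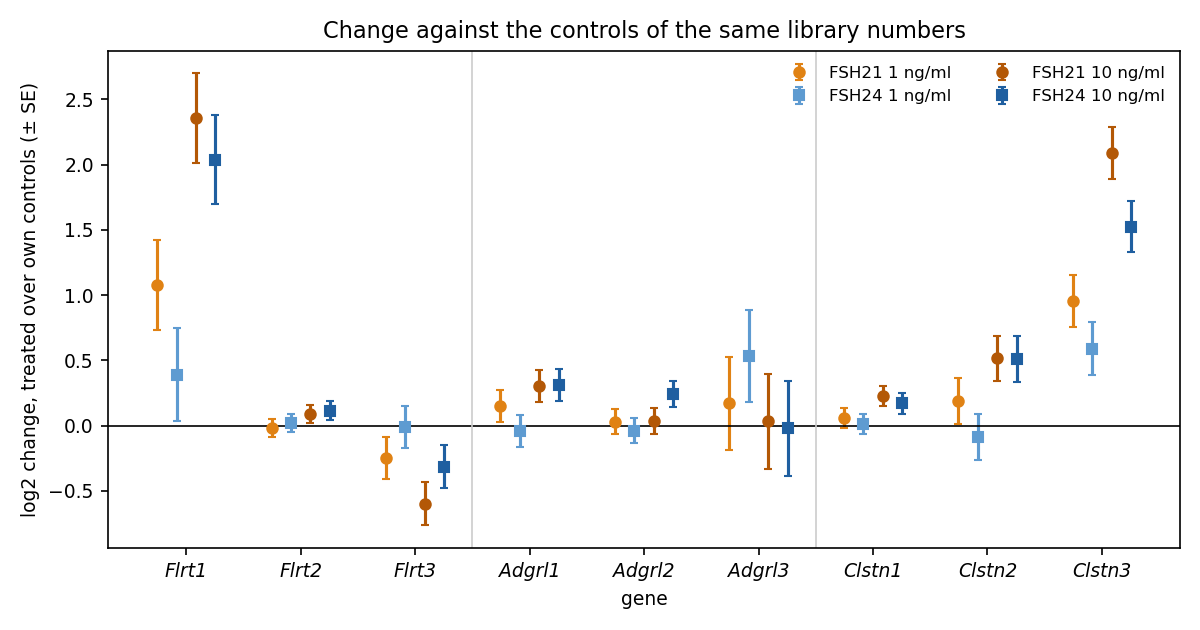
Log2 change of each gene in treated over own control libraries, with bars for the SE, for FSH21 (circles) and FSH24 (squares) at 1 ng/ml (light) and 10 ng/ml (dark). Flrt1 and Clstn3 lie between 1.53 and 2.36 at 10 ng/ml and between 0.39 and 1.08 at 1 ng/ml, and Flrt3 is the member furthest below 0, at -0.60 with 10 ng/ml FSH21.

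Between the 2 forms at 10 ng/ml, 0% of all genes were called by edgeR, 410 had an unadjusted p under 0.05 and DESeq2 called 5. Clstn3, chosen on its rise with 10 ng/ml FSH21, was at 10.55 to 14.9 CPM with FSH21 and 7.89 to 8.27 CPM with FSH24. Its log2 difference was 0.56 (SE 0.18), and that of Adgrl2 was -0.205 (SE 0.098). For Flrt1 the difference was 0.32 (SE 0.31) with overlapping groups. The change at 10 ng/ml exceeded that at 1 ng/ml by 1.28 (SE 0.48) for Flrt1 and 1.13 (SE 0.28) for Clstn3 with FSH21, and by 1.65 (SE 0.49) and 0.94 (SE 0.28) for Flrt1 and Clstn3 with FSH24. Over all genes, edgeR called 0.272% for the dose difference of FSH21 and 2.45% for that of FSH24. Between the 2 sets of controls edgeR called 0% of all genes, 1020 had an unadjusted p under 0.05 and DESeq2 called 1. Flrt1 was at 5.21 ± 1.60 CPM in high-dose and 5.06 ± 0.767 CPM in low-dose controls, and Clstn3 at 2.82 ± 0.173 and 2.42 ± 0.163 CPM (SD, n = 3 each).

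Macrod1, the host gene of Flrt1, moved the other way. It encodes a macrodomain hydrolase that removes ADP-ribose from proteins, and it was looked at because the annotation places Flrt1 in its intron. Macrod1 was at 3.41, 4.31 and 3.93 CPM with 10 ng/ml FSH21 and at 3.33, 4.56 and 4.37 CPM with 10 ng/ml FSH24, against 9.31, 8.30 and 12.07 CPM in the high-dose controls. It fell by 1.35 on the log2 scale with FSH21 (SE 0.17, adjusted p = 3.86e-05, edgeR) and by 1.28 with FSH24 (SE 0.17, adjusted p = 9.26e-05), below every control in 3 of 3 libraries each. At 1 ng/ml it was at 6.13, 5.44 and 6.91 CPM with FSH21 and at 9.89, 8.96 and 9.075 CPM with FSH24, against 9.35, 8.245 and 8.89 CPM in the low-dose controls. The FSH21 libraries again lay below every control, with a log2 change of -0.52 (SE 0.16, adjusted p = 0.360), and the FSH24 libraries overlapped them, at 0.08 (SE 0.16, adjusted p = 0.961). The exons of the 2 genes share no base, but whether reads were counted by strand is not given in the sources used here. Macrod2, which hosts Flrt3 in the same way, stayed at 18.4 to 27.2 CPM over all 18 libraries, with log2 changes at 10 ng/ml of -0.18 (SE 0.11, adjusted p = 0.356) with FSH21 and -0.27 (SE 0.11, adjusted p = 0.143) with FSH24. Of the other annotated overlaps, the protein-coding gene Gm10644 on the opposite strand covers 12.9% of the exon length of Adgrl1 and averaged at most 1.62 CPM in any group.

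**Figure D4:**
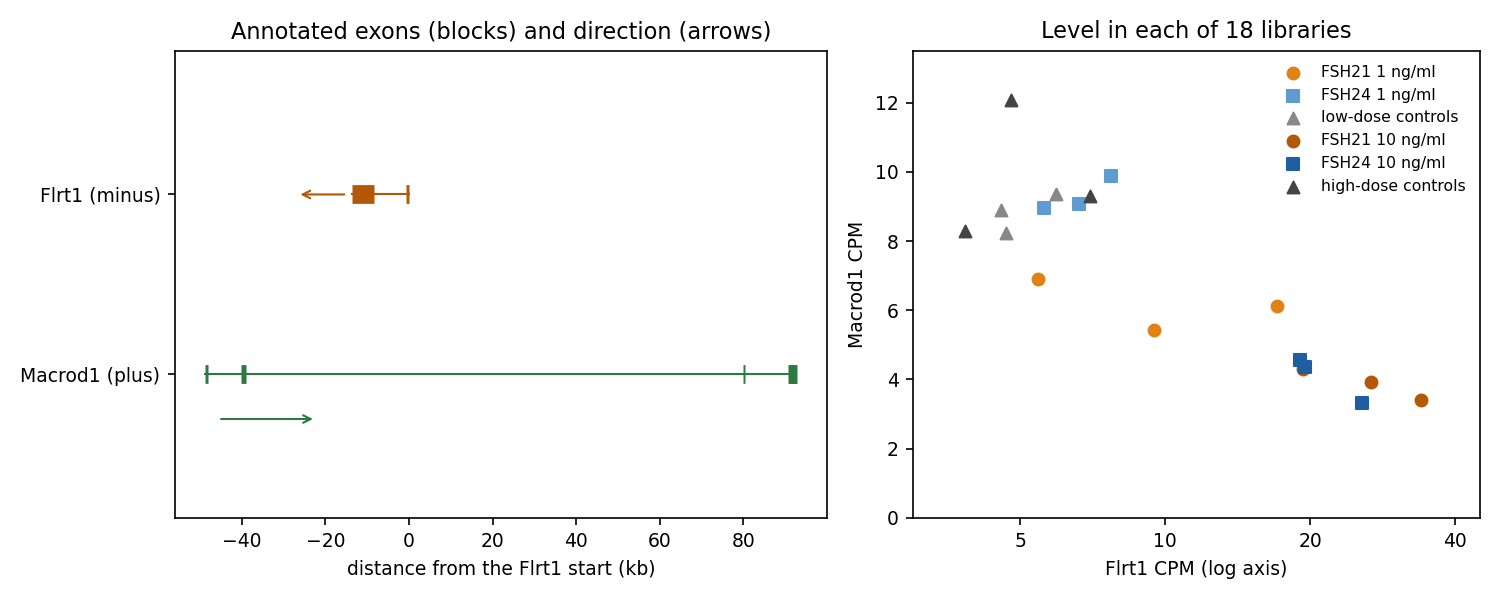
Left, annotated exons of Flrt1 and Macrod1 by distance from the Flrt1 start in kb, with short exons drawn wider than scale. Right, Macrod1 CPM against Flrt1 CPM (log axis) in the 18 libraries: the 6 libraries with 10 ng/ml FSH have Flrt1 at 19.1 CPM or more and Macrod1 at 4.56 CPM or less, and the 6 untreated libraries have Flrt1 at 6.97 CPM or less and Macrod1 at 8.245 CPM or more.

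At most 1 partner of the FLRT and latrophilin proteins was called at 10 ng/ml, while several genes of calsyntenin transport and cleavage rose. The partner lists were chosen from known binding, with earlier results of these data known. Of 17 partners of FLRT proteins and latrophilins, 15 were tested. With 10 ng/ml FSH21, 0 of 15 were called by edgeR and 1 by DESeq2, 1 had an unadjusted p under 0.05 in edgeR, and the median log2 change was 0.01. With 10 ng/ml FSH24 1 rose, against 5.12% of all genes higher, and the median was 0.00. That gene was Fgfr2, a fibroblast growth factor receptor, at 152 ± 7.81 CPM with FSH24 against 118 ± 13.4 CPM in the high-dose controls (SD, n = 3; log2 change 0.37, SE 0.11, adjusted p = 0.0418, edgeR), a call lost in each of the 6 fits that left out 1 of these libraries. Tenm4 was at 2814 ± 266 CPM with 10 ng/ml FSH21 and 2997 ± 498 CPM with FSH24, against 2807 ± 722 CPM in the high-dose controls (SD, n = 3).

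Of 19 calsyntenin partners and processing genes, all tested, 4 rose and 0 fell with 10 ng/ml FSH21, against 5.96% higher and 4.21% lower among all genes, with a median log2 change of 0.11 where that of all genes was 0.00. With 10 ng/ml FSH24, 5 rose and 0 fell, against 5.12% and 3.3% of all genes, and the median was 0.00. Kif5b, a heavy chain of the kinesin-1 motor, had the largest change of the called genes, at 309 ± 10.7 CPM with FSH21 and 261 ± 8.67 CPM with FSH24, against 168 ± 5.99 CPM in the high-dose controls (SD, n = 3). Its log2 change was 0.88 (SE 0.06, adjusted p = 1.705e-08, edgeR) with FSH21 and 0.64 (SE 0.06, adjusted p = 1.44e-06) with FSH24. Klc4, a kinesin light chain, rose by 0.31 (SE 0.07, adjusted p = 0.00776) with FSH21 and 0.26 (SE 0.07, adjusted p = 0.0260) with FSH24 on the log2 scale. Adam10, a protease that sheds calsyntenins, rose by 0.31 (SE 0.06, adjusted p = 0.00153) and 0.27 (SE 0.06, adjusted p = 0.00600) with FSH21 and FSH24. Klc4 lost its call without control number 2 with FSH21 (adjusted p = 0.0503) and in 4 of 6 fits without 1 library with FSH24, and Adam10 with FSH24 lost its call without FSH24 library 2 (adjusted p = 0.0612) or control number 4 (adjusted p = 0.0637). The other calls were Aph1b, a gamma-secretase subunit, with FSH21, and App and Aplp2, of the amyloid precursor family, with FSH24. Between the 2 forms at 10 ng/ml, edgeR called 0 genes of the list, DESeq2 called 1, and 2 had an unadjusted p under 0.05 in edgeR.

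Of 30 other synaptic adhesion genes, 22 were tested, and 1 rose and 1 fell with 10 ng/ml of each form, against 5.96% higher and 4.21% lower among all genes with FSH21 and 5.12% and 3.3% with FSH24. Lrrc4, a leucine-rich postsynaptic ligand of netrin-G, was at 68.5 ± 1.36 CPM with FSH21 and 58.2 ± 3.19 CPM with FSH24, against 40.45 ± 3.79 CPM in the high-dose controls (SD, n = 3). Its log2 change was 0.76 (SE 0.11, adjusted p = 9.75e-05, edgeR) with FSH21 and 0.53 (SE 0.11, adjusted p = 0.00351) with FSH24. Ptprd, a receptor tyrosine phosphatase and presynaptic organiser, was at 226 ± 17.6 CPM with FSH21 and 272 ± 22.4 CPM with FSH24, against 433 ± 91.75 CPM in the high-dose controls (SD, n = 3). It fell by 0.94 (SE 0.12, adjusted p = 6.33e-05) with FSH21 and by 0.67 (SE 0.12, adjusted p = 0.00166) with FSH24 on the log2 scale. At 1 ng/ml none of the 3 lists had a called gene with either form in edgeR or DESeq2. Genes with an unadjusted p under 0.05 numbered 3 of 15, 2 of 19 and 4 of 22 with FSH21 and 0 of 15, 1 of 19 and 3 of 22 with FSH24, in the order of the lists above, against 1370 of 18727 genes with FSH21 and 1119 of 18727 with FSH24.

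**Figure D5:**
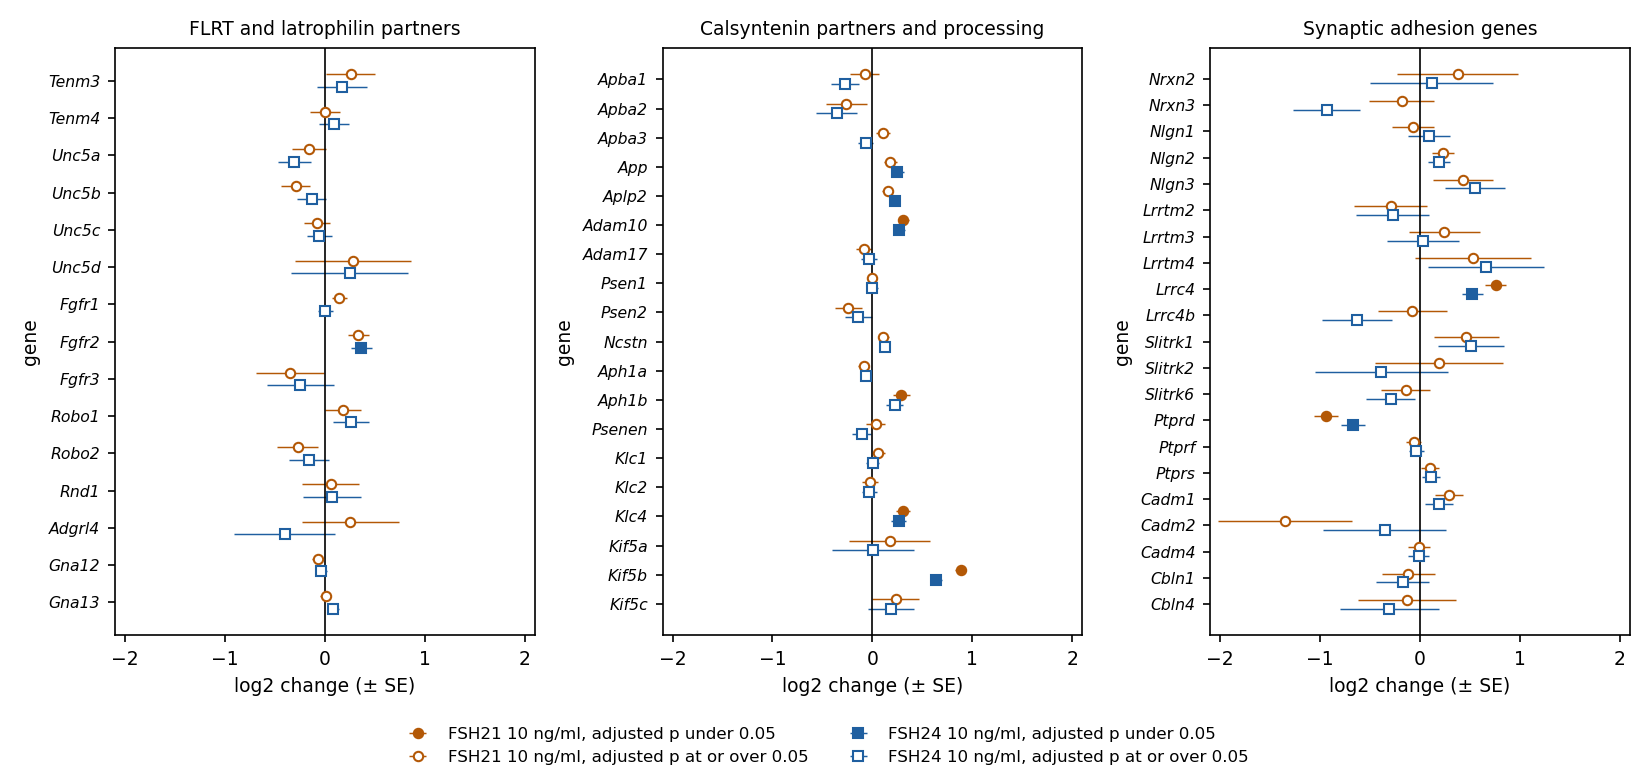
Log2 change with 10 ng/ml FSH21 (circles) and FSH24 (squares) over the high-dose controls for tested genes of the 3 partner lists, with bars for the SE and filled points for an adjusted p under 0.05. Kif5b lies at 0.88 and 0.64, Lrrc4 at 0.76 and 0.53 and Ptprd at -0.94 and -0.67, and most other genes lie near 0 or have wide bars.

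Some markers of the surface epithelium, which covers the ovary, differed alongside these genes. The 7 surface epithelium markers summed to 82.75 to 84.9 CPM with 10 ng/ml FSH21 and 76.2 to 88.5 CPM with FSH24, against 37.7 to 51.6 CPM in the high-dose controls, and to 59.9 to 65.7 CPM with 1 ng/ml FSH21 and 47.4 to 78.3 CPM with FSH24, against 39.6 to 48.7 CPM in the low-dose controls. Of the 5 tested, Krt8 and Lgals7 rose with 10 ng/ml of both forms, by 0.97 and 1.41 with FSH21 and by 0.91 and 1.48 with FSH24 on the log2 scale (adjusted p = 5.39e-05, 0.0228, 0.000140 and 0.0193, edgeR). Krt18, Krt19 and Upk3b were not called, with log2 changes of 0.20, 0.80 and -1.12 with FSH21 and 0.07, -0.90 and 0.22 with FSH24. Krt8 alone was at 28.6 to 74.75 CPM over the 18 libraries, and the defining markers Krt19, Msln and Upk1b had no count in 6, 8 and 13 of the 18 libraries. The 1 ng/ml FSH24 library numbered 6 stood apart, with 439 counts of Upk3b and 250 of Krt19, and without it Clstn3 changed by 0.55 and Flrt1 by 0.39 with 1 ng/ml FSH24 on the log2 scale. Other members did differ in that library. Adgrl3 was 2.69 times its control there, against 1.04 and 1.13 times in numbers 1 and 5. Flrt3 was 0.742 times its control there, against 1.02 and 1.21 times in numbers 1 and 5. A Flrt3 ratio of 0.7425 was also seen in the 1 ng/ml FSH21 library numbered 1, which held 8 counts of Upk3b and 3 of Krt19. The 1 ng/ml FSH21 library numbered 6 held 74 counts of Upk3b and 42 of Krt19, against 15 and 0 in number 5. Without this FSH21 library, Clstn3 changed by 1.01 and Flrt1 by 1.39 with 1 ng/ml FSH21 on the log2 scale. The oocyte markers summed to 3992 to 4505 CPM with 10 ng/ml FSH21 and 4012 to 4287 CPM with FSH24, against 4548 to 4792 CPM in the high-dose controls, and 0 of 10 were called by edgeR, with 2 and 3 at an unadjusted p under 0.05. In the low-dose controls they summed to 3757 to 4375 CPM, and 6 of 10 had an unadjusted p under 0.05 between the control sets, with 0 called and a median log2 difference of 0.22 in high-dose over low-dose controls. Of 10 granulosa markers 5 rose and 1 fell with FSH21 and 4 rose and 1 fell with FSH24. Of 12 theca and stroma markers 2, Cyp17a1 and Star, rose with each form and 10 were not called. Their median log2 change was -0.17 with FSH21 and -0.05 with FSH24. They summed to 2128 to 2967 CPM with FSH21 and 2291 to 3328 CPM with FSH24, against 2285 to 3697 CPM in the high-dose controls. Among all genes 5.96% rose and 4.21% fell with FSH21, and 5.12% rose and 3.3% fell with FSH24. Endothelial markers had 0 of 8 called and 0 at an unadjusted p under 0.05 with either form, and immune markers 0 of 2 tested called and 1 at an unadjusted p under 0.05 with each form. The 10 nerve and glia markers, of which Sox10 had no count in 14 libraries, summed to 117 to 131 and 119 to 122.5 CPM with FSH21 and FSH24, against 110 to 123 CPM in the high-dose controls, and of 8 tested Snap25 rose with FSH21 and Rbfox3 with FSH24. The part of these cell types in the changes of the 9 genes was not tested.

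Genes whose log2 CPM followed Flrt1 most closely over the 18 libraries were Gucy1a1, a soluble guanylate cyclase subunit (Pearson r = 0.973, Spearman rho = 0.907), Tgif2, a homeobox repressor (r = 0.971, rho = 0.955), and Slc25a30, a mitochondrial carrier (r = 0.970, rho = 0.932). For Clstn3 they were Wbp1 (r = 0.956, rho = 0.930), the aldehyde dehydrogenase Aldh3b1 (r = 0.954, rho = 0.953) and the squalene epoxidase Sqle (r = 0.954, rho = 0.930). The libraries share their 6 groups, so these values describe likeness of pattern over groups and library numbers and carry no test.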

How the data were processed

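RNA of 18 follicle libraries was sequenced on 4 lanes each, deposited as 72 samples. The deposited values are expected counts per gene as RSEM writes them, per the file headers, with the lanes of a library already merged by the authors. STAR 2.7, FastQC, bcl2fastq and the build mm10 appear in the submitters' processing notes. The RSEM version, annotation and use of strand are not given in the sources used here. Fractional values made up 33.9% of the entries above 0 and were rounded before the count models. One untreated column, numbered 4, was matched to its titles by number and index although its treatment code is written differently. Gene positions, overlaps and merged exon lengths come from GENCODE M21 on GRCm38, which held 52073 of the 56691 identifiers.

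Genes passing edgeR's filterByExpr by group (minimum count 10; 18727 genes) were fitted in edgeR 4.0.16 (R 4.3.3) with the robust quasi-likelihood test, TMM scaling, all 18 libraries in 6 groups and no block; the fit was tested on simulated data. Each treated group was compared with its own controls, the forms with each other at each dose, the effects between doses, and the control sets. CPM use TMM-adjusted totals, from raw totals of 17510000 to 22510000 counts. Log2 CPM for correlations used a prior count of 2. Alternatives were RLE scaling, no count filter, DESeq2 1.42.0, the number as a block, only the groups compared, and leaving out each library.

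The 9 members, the partner and marker lists and the motifs were chosen with earlier results of these data known. Named genes were all members, up to 3 called partners per list, direction and comparison with the largest change, and for Flrt1 and Clstn3 the 3 most correlated other genes. Macrod1, Macrod2, Aph1b, App, Aplp2 and Tenm4 were named outside that rule, Macrod1 and Macrod2 from the annotation and the rest after their values were seen. One gene of the synaptic list is counted with its list but is not reported here.

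Same-numbered libraries deviated together from their group means: correlations over genes were 0.05 to 0.235 in 18 same-number pairs and -0.173 to 0.049 in 36 pairs of other numbers. Every same-number pair exceeded 0.1 for 10 ng/ml FSH21 and the high-dose controls (0.126 to 0.206), so the numbers were taken to pair the samples there. No 2 libraries of a group agreed within counting noise, with chi-square per degree of freedom from 9.30 to 25.1.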

Additional observations from a re-analysis of the deposited data

Results flagged for a closer look

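Kif5b, the kinesin heavy chain in the calsyntenin list, was singled out because its change differed between doses in a test of the difference itself. The change at 10 ng/ml exceeded that at 1 ng/ml by 0.753 (SE 0.08, adjusted p = 0.000165, edgeR) with FSH21 and by 0.641 (SE 0.08, adjusted p = 0.000339) with FSH24 on the log2 scale. At 1 ng/ml it was at 205 ± 1.54 CPM with FSH21 and 187 ± 13.3 CPM with FSH24, against 187 ± 3.05 CPM in the low-dose controls (SD, n = 3). Macrod1, the host gene of Flrt1, was singled out in the same way with FSH24, where the dose difference was -1.351 (SE 0.23, adjusted p = 0.00452), and with FSH21 it was -0.83 (SE 0.23, adjusted p = 0.236). Dose and library number changed together, so a difference between doses and one between number sets cannot be told apart.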

How the results depend on the processing

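Where edgeR without a block called 0 members with 1 ng/ml FSH21, 1 was called with no count filter (Clstn3), 1 with DESeq2 (Clstn3) and 2 with the replicate block (Clstn3, adjusted p = 0.0223, and Flrt1, adjusted p = 0.0364). Over all genes 24 were called there without a block, 59, 111 and 226 under these alternatives. With the replicate block 6 members were called with 10 ng/ml FSH21, against 3 without it, and 5 with 10 ng/ml FSH24, against 2 without it, both times adding Clstn2, Adgrl1 and Clstn1. All genes called went to 2819 with the block, against 1906 without it, for FSH21 and to 2547, against 1577, for FSH24. DESeq2 called 4 and 3 members at 10 ng/ml, adding Clstn2, with 2302 and 1958 of all genes. For the dose difference of FSH21, where 0 were called, the replicate block and DESeq2 gave 1 each. Over all genes they gave 229 and 167, against 51 in the main fit. For that of FSH24 the replicate block gave 2 members, and DESeq2 and the fit of only the groups compared gave 1 each. Over all genes these 3 fits gave 1180, 816 and 317, against 458 in the main fit. The members were chosen on the 10 ng/ml contrasts, so nothing is read from the counts that use them. The causes were not tested. The block changed no other count of members and could not be fitted for the 2 control sets. Between the forms at 1 ng/ml, all genes called were 2 in the main fit, 65 with no count filter, 177 with the block and 204 with DESeq2. Numbers were taken to pair samples for 10 ng/ml FSH21 only; elsewhere they share a number, although in all 18 same-number pairs the correlation exceeded that of every pair of other numbers. Without 1 library, 2 to 3 members were called at 10 ng/ml with each form and 0 in the 7 other comparisons. At 1 ng/ml, values near 0 changed sign when a library was left out, with ranges on the log2 scale of -0.021 to 0.089 for Adgrl2, -0.057 to 0.50 for Adgrl3 and -0.086 to 0.03 for Flrt2 with FSH21, of -0.108 to 0.06 for Adgrl1, -0.245 to 0.081 for Clstn2, -0.147 to 0.194 for Flrt3, -0.042 to 0.079 for Flrt2, -0.076 to 0.034 for Adgrl2 and -0.026 to 0.046 for Clstn1 with FSH24, and of -0.10 to 0.014 for Flrt2 and -0.01 to 0.126 for Adgrl2 between the forms. Alternatives for the partner genes and Macrod1 were added after seeing the data. Adgrl3 rests on 28 to 127 counts per library and Clstn3 on 49 to 312, which limits their precision.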
